A study of Homo sapiens with 24 samples.

Results

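PAX2, EYA1, LHX1, SALL1, ZIC2, CKB, NEFL, NEFM and INA are genes of the embryonic kidney and of neural cells. The 9 genes were followed through 24 RNA-Seq libraries labelled with the names of triple-negative breast cancer (TNBC) cell lines. The 4 tables of the study hold 66659 gene names together. The 9 genes were chosen by their values in a single contrast, high in the libraries labelled KIF20A overexpression (OE) and low in the empty vector (EV) libraries. Their values in that contrast are therefore given as a description with no test, and tests were made only in the other comparisons.

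There were 8 conditions with 3 libraries each. Hs578T and HCC70 cells of wild-type genotype were sorted into breast cancer stem-like cells (BCSCs), which carry the CD24-CD44+ and ALDH+ marks, and non-BCSCs, which lack them. Cells labelled MDA-MB-231 carried a control sgRNA (sgCtrl) or KIF20A sg1, an sgRNA against KIF20A labelled as a knockdown. In a separate experiment, cells with the same line label carried an empty control vector or a vector labelled KIF20A overexpression. Each of the 4 experiments has a batch number of its own in the labels, so cell line, experiment and batch cannot be told apart between tables, and each table was tested alone. The labels call the libraries of a group biological triplicates.

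Embryonic kidney forms when the intermediate mesoderm switches on a network of transcription factors. PAX2 is a paired box factor needed early in this lineage, LHX1 is a LIM homeobox factor, SALL1 is a zinc finger factor of nephron progenitors, and EYA1 is a phosphatase and transcriptional coactivator. ZIC2 is a zinc finger factor of the early neural tube. CKB is the brain isoform of creatine kinase, which passes phosphate between creatine and ATP. NEFL and NEFM are the light and medium neurofilament chains, and INA, or alpha-internexin, is the intermediate filament protein that assembles with them in axons.

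On GRCh38 (GENCODE 44 positions), PAX2 lies at chr10:100735396-100829944 and INA at chr10:103277138-103290346, both on the plus strand. ZIC2 lies at chr13:99981784-99986765 and LHX1 at chr17:36936785-36944612, also on the plus strand. SALL1 lies at chr16:51135982-51152334 and CKB at chr14:103519667-103522833, both on the minus strand. NEFM and NEFL are neighbours, 31.9 kb apart and read from opposite strands, and EYA1 is on the same chromosome. The values below are sums over the exons of each gene, so they do not separate coding sequence from UTRs. No other gene overlaps the exons of a member on its own strand. On the opposite strand, lncRNAs share 26.4% of the exon bases of NEFM, 19.8% of those of NEFL and 7.47% of those of LHX1, and NT5C2 shares 13.9% of those of INA. The libraries mark strand, but the counting setting is not given in the sources used here, so reads of such pairs could be mixed. NT5C2 ranged from 45.4 to 47.0 CPM in EV and from 31.7 to 35.7 CPM in the labelled OE libraries, a lower level where INA was higher. SALL1, CKB, NEFL and NEFM each have an annotated pseudogene elsewhere in the genome, which could share some of their reads.

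The RefSeq promoter table holds windows that can be shown for 4 of the members, and they are printed because these genes were high together in the same 3 libraries. Each line runs from 250 to 11 bases before a RefSeq start, on GRCh38.p14 and 5′ to 3′ on the strand of the gene. Capitals mark the TATA box (TATAAA), the CCAAT box (CCAAT) and the GC box (GGGCGG), searched on both strands.
CKB, chr14:103522841-103523080, minus strand: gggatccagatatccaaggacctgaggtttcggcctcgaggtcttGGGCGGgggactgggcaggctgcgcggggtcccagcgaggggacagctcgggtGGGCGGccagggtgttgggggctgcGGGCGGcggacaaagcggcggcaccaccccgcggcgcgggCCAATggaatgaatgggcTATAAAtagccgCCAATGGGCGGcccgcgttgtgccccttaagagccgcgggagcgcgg
INA, chr10:103276888-103277127, plus strand: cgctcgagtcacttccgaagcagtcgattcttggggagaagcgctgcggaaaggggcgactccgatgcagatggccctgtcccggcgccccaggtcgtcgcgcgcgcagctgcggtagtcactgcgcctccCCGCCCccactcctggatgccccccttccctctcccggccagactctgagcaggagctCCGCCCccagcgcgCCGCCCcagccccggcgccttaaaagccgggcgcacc
ZIC2, chr13:99981534-99981773, plus strand: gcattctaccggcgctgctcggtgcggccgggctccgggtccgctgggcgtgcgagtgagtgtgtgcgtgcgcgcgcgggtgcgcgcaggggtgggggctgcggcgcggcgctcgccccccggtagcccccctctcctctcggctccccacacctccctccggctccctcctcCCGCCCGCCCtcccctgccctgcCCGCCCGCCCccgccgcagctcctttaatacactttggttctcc
PAX2, first start, chr10:100735146-100735385, plus strand: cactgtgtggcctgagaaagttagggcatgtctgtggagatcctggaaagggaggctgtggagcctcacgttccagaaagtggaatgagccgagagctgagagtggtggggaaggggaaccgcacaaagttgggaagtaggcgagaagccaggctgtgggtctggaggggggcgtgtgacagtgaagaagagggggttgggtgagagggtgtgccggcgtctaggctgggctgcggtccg
PAX2, second start, chr10:100745332-100745571, plus strand: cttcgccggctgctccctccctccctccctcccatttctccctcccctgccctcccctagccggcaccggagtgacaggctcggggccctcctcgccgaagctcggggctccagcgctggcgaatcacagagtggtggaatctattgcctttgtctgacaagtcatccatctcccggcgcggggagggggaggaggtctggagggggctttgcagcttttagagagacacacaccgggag

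Only the CKB window of these 5 held a TATA box, and it also held 2 CCAAT boxes and 4 GC boxes, the last of them directly after a CCAAT box. INA held 3 GC boxes and ZIC2 held 4, in overlapping pairs, while neither PAX2 window held any of the 3 motifs. Among 35116 windows of the same length in the table, 10.5% held a TATA box, 31.4% a CCAAT box and 41.4% a GC box. GC content was 76.2% for ZIC2, 71.7% for INA, 70.4% for CKB, and 60.8% and 65.4% for the starts of PAX2, against a median of 57.9% over all windows. The windows thus share a GC content above the median and no one of the 3 motifs.

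Library depth was 15971297 to 22182293 reads in the EV and labelled OE table, 41424338 to 51018667 in the sgRNA table, 28189500 to 33715701 in Hs578T and 24681218 to 33559417 in HCC70, as recovered from the values. The 15 mesenchymal markers summed to 11559 to 11724 CPM in the EV libraries, and to 515 to 951 CPM in the labelled OE libraries. There all 15 were lower by limma (adjusted p under 0.05), beside 26.8% of all genes with an EV mean of 1 CPM or more. CD44, the hyaluronan receptor that marks MDA-MB-231, was 642 ± 135 CPM in EV (SD, n = 3) and 0.557 ± 0.591 CPM in the labelled OE libraries. KIF20A itself, the targeted mitotic kinesin, was 101.1, 142.9 and 123.7 CPM in EV and 1348, 269 and 896 CPM in the labelled OE libraries. Of the 15 markers, CD44, AXL, NT5E, PLAU and TGFBI averaged under 1 CPM there, so these libraries carry a raised KIF20A level but lack defining markers of their labelled line, and they are called by their label only. The part of this difference in the member values was not tested. The basal epithelial markers, which an MDA-MB-231 library need not hold, were called higher in 3 and lower in 5 of 8 tested. Of all genes tested in this contrast, 46.2% were called higher and 23.4% lower. Of the 3 markers called higher, 2 had an EV mean under 1 CPM. The epithelial markers summed to 1728 to 2006 CPM in EV and to 377 to 500.3 CPM in the labelled OE libraries. Much of the EV sum was KRT19, a keratin of simple epithelia, at 828 ± 73.1 CPM in EV and a mean of 0.0301 CPM in the labelled OE libraries. The same 15 mesenchymal markers summed to 9864 to 11848 CPM in the 6 sgRNA libraries and to 10991 to 11692 TPM in Hs578T, and the epithelial markers to 9514 to 10842 TPM in HCC70. In bulk RNA, fewer cells of a type and less RNA per cell cannot be told apart.

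In the labelled OE libraries, the kidney factors, the neurofilament genes, ZIC2 and CKB were each higher in all 3 libraries than in any EV library. This held for 9 of 9 members, as their choice required, against 48.9% of all 15265 genes tested, so nothing is read from it. The 9 members fall into 3 kinds by their EV level. PAX2, NEFL and INA had no read in any of the 3 EV libraries, LHX1, SALL1 and NEFM had 1 or 2 reads in all, and EYA1, ZIC2 and CKB had 24, 954 and 11272 reads.

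PAX2 stood at 7.39, 10.7 and 9.96 CPM in the labelled OE libraries. Against the upper limit that 0 reads allow in the pooled EV group, which is 3 reads or 0.0511 CPM, this is at least 186-fold higher. The intervals and limits given here cover counting error only.

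SALL1 stood at 55.3, 38.3 and 45.4 CPM in the same libraries and had 1 read in EV. The ratio of pooled reads was 2666 with an exact 95% counting interval from 478 to 105340, so its size is poorly fixed. LHX1 had the lowest level of the kidney factors, 4.38, 2.57 and 4.23 CPM against 2 reads in 1 EV library, a ratio of 106 (29.1 to 884).

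EYA1 stood at 24.9, 17.6 and 24.9 CPM, and its EV libraries were uneven, with 0, 3 and 21 reads or 0, 0.145 and 1.23 CPM. The pooled ratio was 54.0 (36.1 to 84.6). Most of the EV reads thus came from EV replicate 3, still well under the lowest labelled OE library.

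ZIC2 was a moderately expressed gene in EV, with 10.6, 18.9 and 20.0 CPM, and stood at 126, 224 and 125 CPM in the labelled OE libraries. The pooled ratio was 10.1 (9.44 to 10.8). CKB was already abundant in EV, with 172, 202 and 204 CPM, and reached 1133, 1028 and 1275 CPM, a ratio of 5.93 (5.81 to 6.05). In these libraries CKB had a higher value than 99.8% of the listed genes in the lowest library.

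NEFL was the most abundant of the neurofilament genes by CPM, with 101.2, 50.6 and 89.8 CPM in the labelled OE libraries, at least 1521-fold higher than the EV limit. INA stood at 16.3, 42.6 and 23.1 CPM, at least 563-fold higher. NEFM stood at 16.3, 12.2 and 23.6 CPM against 1 read in EV, a ratio of 1005 (180 to 39737). NEFL was one of 201 genes with no EV read and at least 5 CPM in every labelled OE library, as were PAX2 and INA, and 16 genes absent from EV had a higher mean than NEFL.

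**Figure D1:**
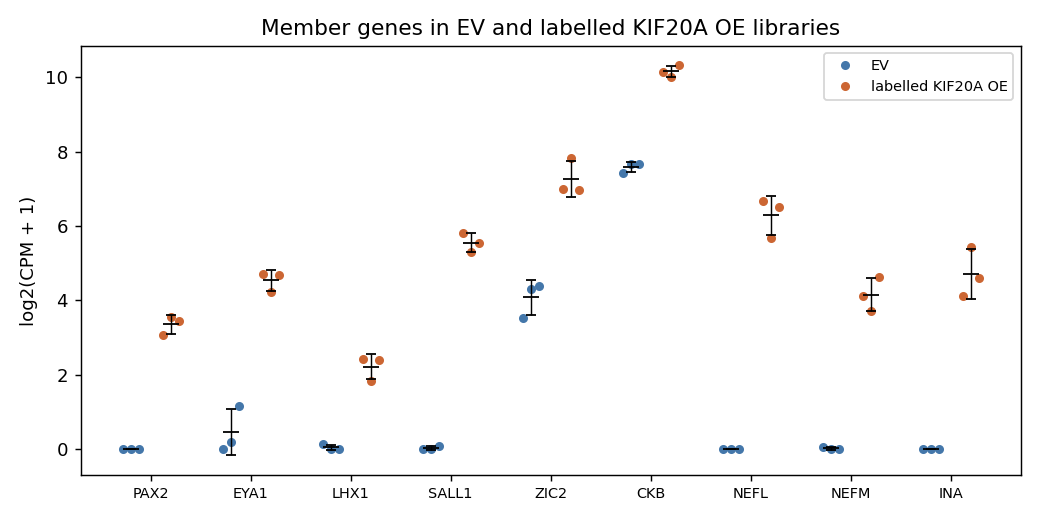
Level of each member as log2(CPM + 1) in the 3 EV libraries (blue) and the 3 labelled OE libraries (orange), each point a library, with the mean and SD as black bars. The groups do not overlap for any of the 9 genes, and only ZIC2 and CKB have all EV libraries well above 0.

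The members did not follow one another within the labelled OE libraries. Replicate 2, which had the lowest KIF20A of the group, was the lowest library for 6 members (EYA1, LHX1, SALL1, CKB, NEFL and NEFM) and the highest for the other 3 (PAX2, ZIC2 and INA). NEFL and INA thus went in opposite directions, NEFL from 101.2 to 50.6 CPM and INA from 16.3 to 42.6 CPM between replicates 1 and 2. With 3 libraries no relation between KIF20A and a member was tested.

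Levels can be compared between genes only per length. Divided by the union exon length, the levels in the labelled OE libraries were 481 ± 52.1 CPM per kb for CKB, 48.2 ± 17.3 for ZIC2 and 20.4 ± 6.74 for NEFL (SD, n = 3). INA followed at 8.40 ± 4.20, SALL1 at 7.35 ± 1.36 and NEFM at 4.78 ± 1.59 CPM per kb. EYA1 stood at 2.41 ± 0.451, PAX2 at 1.42 ± 0.263 and LHX1 at 0.759 ± 0.205 CPM per kb. The libraries of CKB, ZIC2 and NEFL did not overlap with one another in this order, nor did those of NEFM, EYA1, PAX2 and LHX1. NEFL and INA overlapped at their edges (12.85 to 25.7 against 5.01 to 13.1), and the ranges of INA, SALL1 and NEFM overlapped. Library by library, NEFM was below both INA and SALL1 in all 3, while SALL1 was above INA in 2 of 3.

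The other genes of these pathways, none of them a member, were tested in the same contrast by limma on log2(CPM + 1) with Benjamini-Hochberg adjustment over all genes. Of all 15265 genes tested, 46.2% were called higher and 23.4% lower, with a median log2 difference of 0.37, so every count of a list is to be read against a contrast in which most genes differed. The split of calls was 66.3% higher under this scaling and 50.6% higher after rescaling by the median of ratios, which moved the median of all genes to 0.03. A gene whose EV mean is under 1 CPM could enter the test only through a high level in the labelled OE libraries, so its call carries no weight, and its adjusted p is not given. This held for 1897 of the 15265 genes, of which 1762 were called higher. Among the 13368 genes with an EV mean of 1 CPM or more, 39.6% were called higher and 26.8% lower, and the lists below are set against these shares.

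Of 32 kidney development factors other than the members, 31 were listed and 29 tested, of which 23 were called higher, 3 lower and 3 were not called. Of the 23, 15 had an EV mean under 1 CPM. Of the 14 with an EV mean of 1 CPM or more, 8 were called higher, 3 lower and 3 were not called, or 57.1% higher and 21.4% lower beside 39.6% and 26.8% of all such genes. The genes named from each list in this contrast were picked mainly for a high level in the labelled OE libraries or in EV, which favours large differences. The 3 called lower were SIX4, PAX8 and OSR1, given below. FOXC1, a forkhead factor of early mesenchyme, rose from 46.8 ± 5.54 to 529 ± 82.5 CPM (log2 difference 3.47 ± 0.15 SE, adjusted p = 4.6e-07, limma). FOXD1, a forkhead factor of the renal stroma, had no EV read and stood at 92.9 ± 15.0 CPM, at least 1829-fold higher. HOXD11, a paralog of the HOX11 group that patterns the metanephros, likewise had no EV read and stood at 92.1 ± 16.9 CPM, at least 1772-fold higher. EYA3, a paralog of EYA1, rose from 48.1 ± 5.99 to 116 ± 4.65 CPM (1.25 ± 0.13, adjusted p = 5.2e-05, limma).

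SIX4, a homeobox partner of EYA1, did not move with it. SIX4 fell from 65.2 ± 12.2 CPM in EV to 44.8 ± 0.987 CPM (adjusted p = 0.015, limma), so EV held this partner while PAX2 had no read and SALL1 a single read.

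Of 18 genes of the mature kidney 8 were listed and 5 tested, and 1 was called higher and 4 lower. The 4 lower calls are all of those with an EV mean of 1 CPM or more, beside 26.8% of all such genes called lower. So few genes give no result about the list. PODXL, the podocalyxin of podocytes that epithelial tumor lines also express, fell from 1372 ± 621 to 23.8 ± 8.69 CPM (adjusted p = 5.6e-06, limma). AQP1, a water channel, fell from 30.9 ± 21.7 to 0.985 ± 0.160 CPM (adjusted p = 0.00029, limma). CUBN, the endocytic receptor cubilin, fell from 10.6 ± 0.658 to 1.13 ± 0.726 CPM and SYNPO, an actin protein of podocytes, from 7.15 ± 0.584 to 2.16 ± 0.752 CPM. The gene called higher was LRP2, or megalin, at 0.515 ± 0.294 and 8.71 ± 5.04 CPM, with an EV mean under the minimum.

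**Figure D2:**
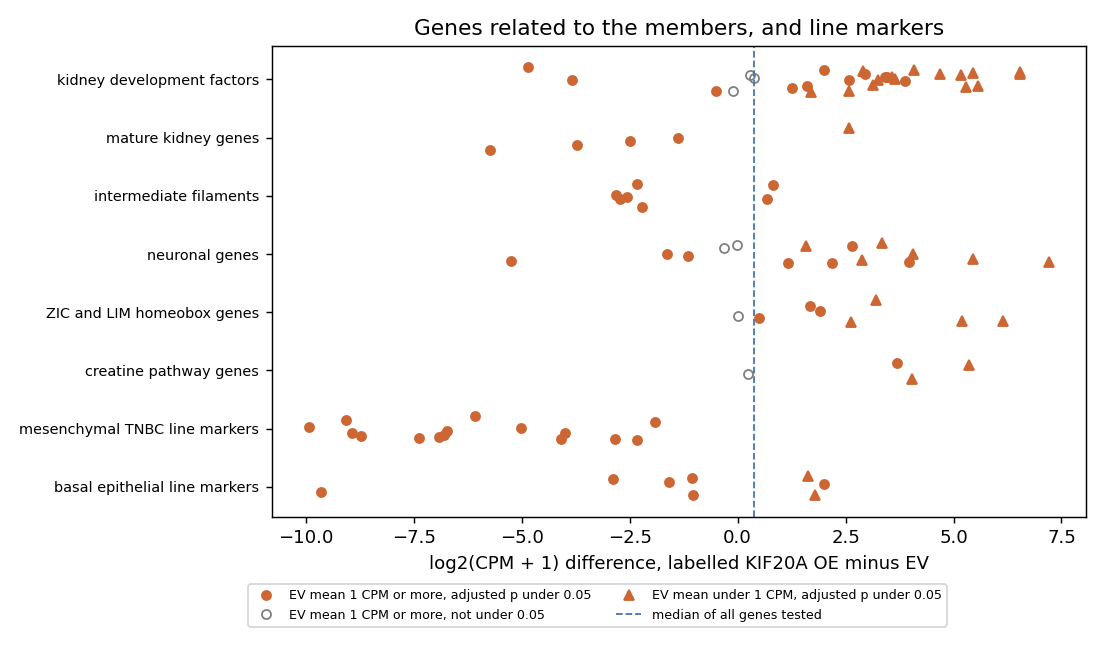
Each point is a gene that passed the minimum of the test, placed by its log2(CPM + 1) difference, labelled OE libraries minus EV, with filled symbols for an adjusted p under 0.05 and a dashed line for the median of all genes at 0.37. Circles are genes with an EV mean of 1 CPM or more, which lie on both sides of 0 for kidney development factors and neuronal genes, and triangles are genes with a lower EV mean, which had to be high in the labelled OE libraries to be shown.

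Intermediate filament genes other than NEFL, NEFM and INA were called lower in 5 and higher in 2 of 7 tested, all with an EV mean of 1 CPM or more. Of all such genes 26.8% were called lower and 39.6% higher. VIM, the vimentin of mesenchymal cells, fell from 2653 ± 117 to 556 ± 214 CPM and LMNA, the A-type lamin, from 977 ± 51.5 to 145 ± 49.2 CPM (adjusted p = 8.2e-05 and 2.3e-05, limma). NES fell from 86.2 ± 40.1 to 11.4 ± 2.43 CPM and GFAP from 10.8 ± 2.07 to 0.988 ± 0.190 CPM (adjusted p = 7.8e-05 and 1.3e-05, limma). SYNM fell from 31.6 ± 5.66 to 6.79 ± 3.855 CPM (adjusted p = 0.0015, limma). NES, GFAP and SYNM were added after their values were seen, to give all 5 lower calls. The pair called higher were the B-type lamins LMNB2, at 379 ± 87.5 and 600.0 ± 11.6 CPM, and LMNB1, at 221 ± 73.8 and 376 ± 40.2 CPM, and neither was called after rescaling by the median of ratios (log2 differences of 0.32 and 0.45, adjusted p = 0.11 and 0.1, limma). NEFH, the heavy neurofilament chain, did not reach the minimum of the test, with 0.0709 CPM in EV and 0.684 CPM in the labelled OE libraries.

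Neuronal genes were called higher in 10 and lower in 3 of 15 tested, and 6 of the 10 had an EV mean under 1 CPM. Of the 9 with an EV mean of 1 CPM or more, 4 were called higher, 3 lower and 2 were not called, near the shares of all genes. UCHL1, a deubiquitinase abundant in neurons, had no EV read and stood at 146 ± 16.8 CPM, at least 2865-fold higher. NCAM1, a neural cell adhesion molecule, had 4 EV reads and stood at 45.7 ± 2.92 CPM. POU3F2, a POU factor of neural progenitors, rose from 2.91 ± 2.60 to 51.7 ± 21.9 CPM (adjusted p = 0.00042, limma). MAP1B, a microtubule-associated protein, fell from 413 ± 64.6 to 131 ± 14.8 CPM and L1CAM, a neural adhesion molecule that carcinomas also express, from 289 ± 156 to 6.82 ± 4.59 CPM (adjusted p = 2.6e-05 and 2.8e-05, limma).

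Of the relatives of ZIC2 and LHX1, 7 of 8 tested were called higher and none lower, and 4 of the 7 had an EV mean under 1 CPM. Of the 4 with a higher EV mean, 3 were called higher and 1 was not called, beside 39.6% higher and 26.8% lower of all such genes. With 4 genes, this is no result about the list. ZIC5, which lies beside ZIC2 in the genome, had no EV read and stood at 71.2 ± 18.3 CPM, at least 1428-fold higher. LHX6 rose from 2.42 ± 1.23 to 9.56 ± 2.14 CPM (adjusted p = 0.0012, limma) and LDB1, the cofactor that binds LIM homeobox proteins, from 115 ± 21.7 to 161 ± 6.63 CPM (adjusted p = 0.014, limma). LDB1 was not called after rescaling by the median of ratios (log2 difference 0.14, adjusted p = 0.41, limma), by edgeR (adjusted p = 0.41) or by DESeq2 (adjusted p = 0.45). LHX9 stood at 2.88 ± 1.53 and 2.71 ± 0.864 CPM and was not called (adjusted p = 1, limma).

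Of the creatine genes around CKB, 3 of 4 tested were called higher, and 2 of the 3, CKMT1A and CKMT1B, had an EV mean under 1 CPM. The other 2, with an EV mean of 1 CPM or more, were SLC6A8, called higher, and GAMT, not called. Of all such genes 39.6% were called higher. SLC6A8, the creatine transporter, rose from 28.1 ± 21.7 to 308 ± 27.0 CPM (3.68 ± 0.47, adjusted p = 0.00018, limma). CKMT1B and CKMT1A, near-identical genes of mitochondrial creatine kinase whose reads the counting may have split, stood at 43.0 ± 2.74 and 15.8 ± 0.424 CPM against 5 reads and 1 read in EV. GAMT, the enzyme that makes creatine, stood at 27.7 ± 5.93 and 32.6 ± 1.77 CPM and was not called (adjusted p = 0.25, limma).

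The comparison of KIF20A sg1 with sgCtrl asked what depletion of KIF20A does in MDA-MB-231 cells. The kidney factors and neurofilament genes had no read or a few reads in these 6 libraries. SALL1 and NEFM had no read in any of them, which allows up to 0.0105 CPM over the 6 libraries, and PAX2, LHX1, NEFL and INA had 1 or 2 reads in a single library. EYA1 had 0, 3 and 3 reads in sgCtrl and 2, 10 and 6 reads in KIF20A sg1. The EYA1 groups overlapped (exact permutation p = 0.3, two-sided, where 0.1 is the smallest value that 3 against 3 libraries can give). The ratio of pooled reads, KIF20A sg1 over sgCtrl, was 3.08 with an exact 95% counting interval from 1.17 to 9.49, which covers counting error only and not the spread between libraries.

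ZIC2 was 10.6, 15.6 and 15.7 CPM in sgCtrl and 12.9, 12.2 and 13.7 CPM in KIF20A sg1, as the authors named the unit, with a log2 difference of -0.08 ± 0.18 (SE). CKB was 96.0, 99.5 and 96.7 CPM in sgCtrl and 83.2, 102.5 and 99.5 CPM in KIF20A sg1, a difference of -0.04 ± 0.12. Neither was called (adjusted p = 0.92 and 0.95, limma), and the groups overlapped for both, in a comparison where 0% of the 12852 genes tested were called by limma, 899 had an unadjusted p under 0.05, and 13% had groups that did not overlap. On reads recovered from the values edgeR called 0 genes and DESeq2 called 11. KIF20A was 153, 173 and 156 CPM in sgCtrl and 122, 145 and 91.1 CPM in KIF20A sg1 (log2 difference -0.45 ± 0.16, adjusted p = 0.69, limma), lower in all 3 KIF20A sg1 libraries but not called. These values are mRNA, while the authors assessed depletion by sgRNAs in this line by immunoblot of KIF20A protein. No gene of the 6 related lists was called in this comparison.

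In sorted Hs578T cells, the question was whether BCSCs and non-BCSCs differ. Of the 9 genes 7 were listed, and SALL1, ZIC2 and CKB passed the minimum of a mean of 1 TPM. SALL1, with at most 1 read in any EV, sgCtrl or KIF20A sg1 library, was 7.52, 7.95 and 7.67 TPM in non-BCSCs and 7.87, 8.29 and 9.00 TPM in BCSCs. ZIC2 was 14.3, 14.4 and 14.1 TPM in non-BCSCs and 15.3, 15.4 and 14.7 TPM in BCSCs, and CKB was 11.2, 9.27 and 12.0 TPM in non-BCSCs and 11.4, 14.6 and 10.9 TPM in BCSCs. The ZIC2 groups did not overlap and those of SALL1 and CKB did.

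None of these 3 genes was called by limma (log2 differences of 0.11 ± 0.06, 0.08 ± 0.05 and 0.16 ± 0.12, adjusted p = 0.38, 0.35 and 0.49), in a comparison where 7.15% of 13324 genes were called and 29% had groups that did not overlap. The count of 1 of 3 members without overlap is near that background. At unadjusted p under 0.05, limma called none of the 3 in this fit, and edgeR and DESeq2 on recovered reads called none after adjustment.

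NEFL was the member that separated most clearly between the sorted fractions of Hs578T. It was 0.760, 0.636 and 0.578 TPM in non-BCSCs, from 34, 32 and 31 reads, and 0.162, 0.296 and 0.278 TPM in BCSCs, from 8, 15 and 15 reads. All BCSC libraries were thus lower than all non-BCSC libraries (exact permutation p = 0.1, two-sided, the smallest possible). The ratio of pooled reads, BCSC over non-BCSC, was 0.383 with an exact 95% counting interval from 0.256 to 0.563. NEFL lay under the minimum of the main test, and without a minimum limma called it lower (log2 difference -0.41 ± 0.06, adjusted p = 0.025), as did edgeR on recovered reads (-1.37, adjusted p = 0.0020). In these fits 4.1% of 19283 genes were called by limma and 9.8% by edgeR, and NEFL was 1 of 7 members tested.

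The remaining members were close to the limit of detection in Hs578T. EYA1 had 20 reads in non-BCSCs and 13 in BCSCs, LHX1 had 19 and 15, and NEFM had a single read in 1 BCSC library, with overlapping groups for each. PAX2 and INA were not listed in this table. Among the related lists, ITGA8, the integrin subunit needed for ureteric bud outgrowth, was the only kidney development factor of 12 tested that was called, rising from 81.6 ± 3.34 to 123 ± 4.03 TPM (log2 difference 0.58 ± 0.05, adjusted p = 0.0010, limma). A count of 1 of 12 is near the 7.15% of all genes called in this comparison. Of 9 neuronal genes tested, 3 fell in BCSCs, namely SYT1, SNAP25 and L1CAM (log2 differences of -0.59, -0.69 and -0.54, adjusted p = 0.0012, 0.0066 and 0.0049, limma), and none rose, again in a comparison that called 7.15% of all genes. These genes are named because each count is small, after their values were seen.

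**Figure D3:**
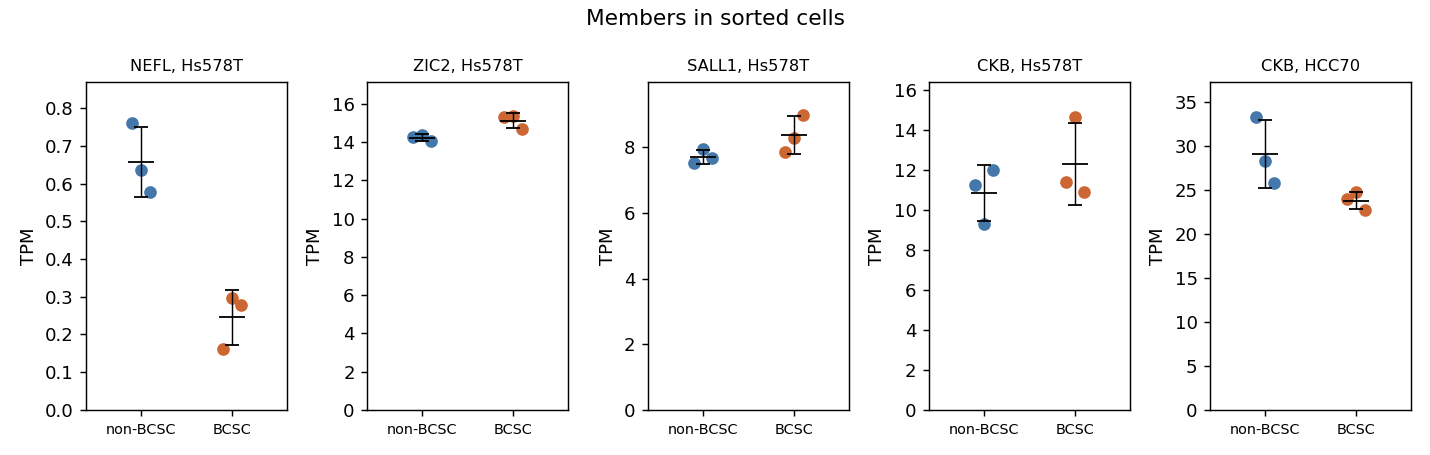
Level in TPM of NEFL, ZIC2, SALL1 and CKB in sorted Hs578T cells and of CKB in sorted HCC70 cells, each point a library, with the mean and SD as black bars and every axis starting at 0. NEFL in Hs578T and CKB in HCC70 were lower in every BCSC library than in every non-BCSC library, and NEFL rests on 8 to 34 reads a library.

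In sorted HCC70 cells 4 of the 9 genes were listed and only CKB could be tested. CKB was 33.3, 28.2 and 25.7 TPM in non-BCSCs and 24.0, 24.7 and 22.7 TPM in BCSCs, lower in all 3 BCSC libraries. It was not called after adjustment (log2 difference -0.27 ± 0.09, p = 0.0197, adjusted p = 0.14, limma), and the exact permutation p was 0.1, the smallest possible. In this comparison 2.83% of 13218 genes were called and 30.9% had groups that did not overlap. The difference was -0.17 without non-BCSC replicate 1, the highest library. Of the related genes, NPNT, the ITGA8 ligand nephronectin (1 of 10 kidney development factors tested), and PODXL (1 of 3 mature kidney genes tested) rose in BCSCs, by log2 differences of 0.33 and 0.28 (adjusted p = 0.017 and 0.036, limma), and none fell. With 2.83% of all genes called, 1 gene of so short a list is no result about the list. Both are named after their values were seen.

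INA had 1, 3 and 3 reads in HCC70 non-BCSCs and 4, 4 and 2 reads in BCSCs. LHX1 had 2 reads and SALL1 1 read in the 6 libraries together. PAX2, EYA1, ZIC2, NEFL and NEFM were not listed. ZIC2 and SALL1, both well measured in Hs578T, were thus at or under a single read in HCC70 or not listed there.

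**Figure D4:**
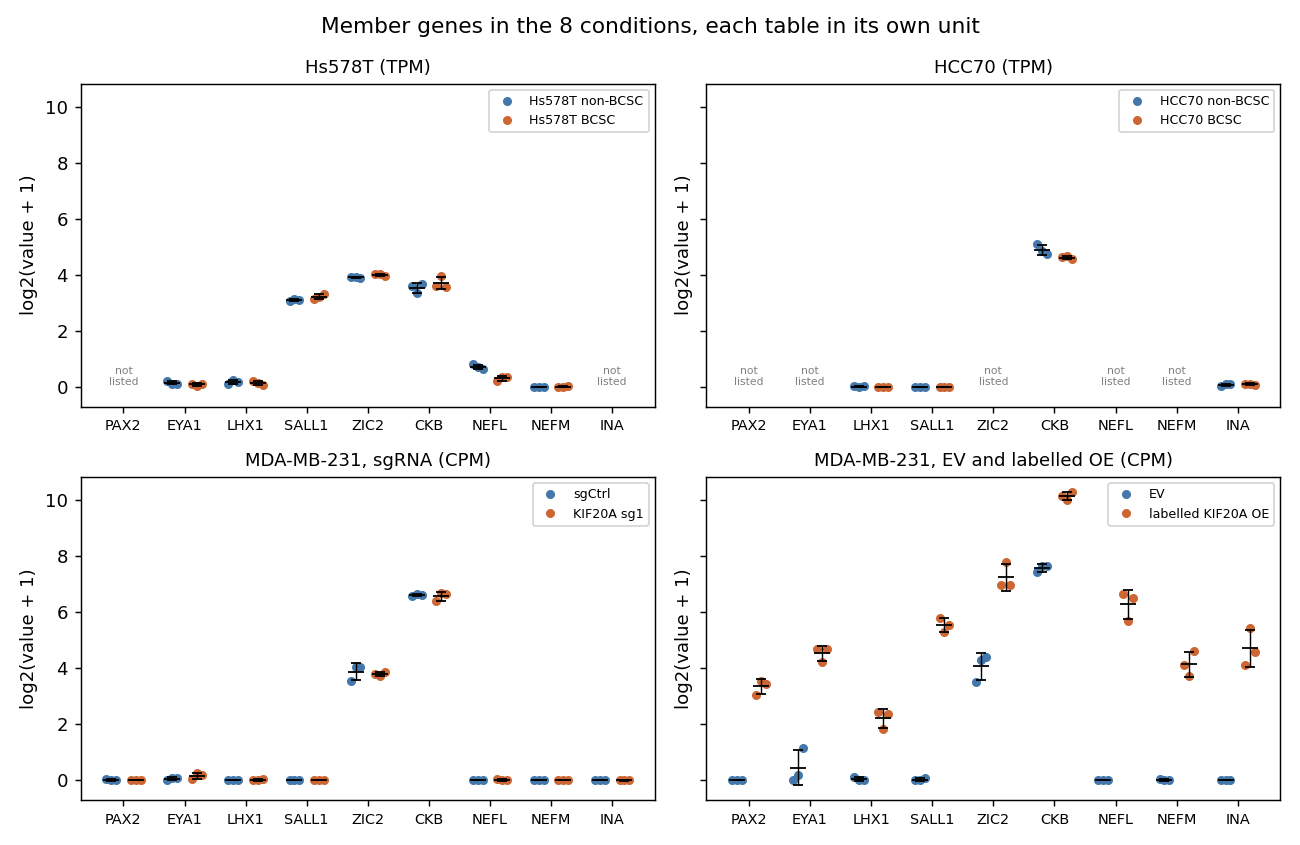
Level of the 9 genes as log2(value + 1) in the 8 conditions, a panel for each table in its own unit (TPM or CPM), each point a library and black bars the mean and SD, so that heights should be compared only within a panel. CKB was measured in all 8 conditions and ZIC2 in 6, while SALL1 was clearly above 0 only in Hs578T and in the labelled OE libraries.

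Across the 4 tables, CKB was the only member with reads in all 24 libraries. PAX2, NEFM and INA had at most 4 reads in any library outside those labelled KIF20A OE. The members listed in every table were CKB, SALL1 and LHX1. Genes with a like pattern were sought by Pearson's r with the mean of these members' log2 values over the 24 libraries. The 9283 candidates were limited to genes that reached a minimum mean level in the labelled OE libraries. The members were themselves chosen for high values there. This limit and this choice favour genes high in the labelled OE libraries, so nothing is read from that feature of the closest genes. The closest were KCNN1, a calcium-activated potassium channel (r = 0.978), LYSMD4, MGARP and DLL1 (each 0.976). DLL1, a Notch ligand, averaged 0.374 CPM in EV against 14.1 CPM in the labelled OE libraries. GUCY1A2, ADAM11, SEMA4G, GPM6B and KBTBD11 followed, with r from 0.974 to 0.975. These values describe likeness over libraries that share their table, unit and depth. Of the members in the profile, LHX1 had the highest r with it, 0.970 against 0.793 for SALL1 and 0.785 for CKB. This r does not measure how much a member adds to the mean.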

How the data were processed

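RNA-Seq values were taken for 24 libraries in 8 groups of 3, with groups and replicate numbers from the labels, and 0 sample columns were left unused. The authors prepared stranded poly-A libraries and sequenced them paired-end; the submitters' processing notes name HISAT2 2.0.5, featureCounts 1.5.0-p3 and GRCh38, and the annotation is not given in the sources used here. For the sorted lines the deposited values are TPM, scaled by the authors to a total of 1000000. Across genes, the reads behind each unit of TPM rose with exon length (Spearman's rho 0.68 in both), a description. The deposited sgRNA table holds a signal that the authors named CPM, with totals of 977394 to 1028621. The deposited EV and labelled OE table holds CPM without a length term.

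Whole reads were recovered from the steps between values and were whole for 100% of the genes (within 0.1 read in the MDA-MB-231 tables and 0.02 in the sorted tables). A gene whose TPM reads share a divisor may be too low. On these reads edgeR 4.0.16 called 1646, 715, 0 and 9931 genes in Hs578T, HCC70, sgRNA and EV against labelled OE, and DESeq2 1.42.0 called 1418, 1167, 11 and 10185. The main test was limma 3.58.1 (R 4.3.3, trend in the prior variance) on log2(value + 1), two-sided, for genes averaging 1 or more across the 6 libraries compared, adjusted by Benjamini-Hochberg over all of them, and it was tested on simulated data. A fold change on this scale understates the change of low genes. Ratios of pooled reads carry exact binomial 95% intervals, and 3 reads over the group set the limit where a group had none. Positions came from GENCODE 44 and promoter windows from RefSeq. Alternatives were a pseudocount of 0.1, a minimum of 5 or none, the median of ratios, a replicate block, each library left out, and both count tools; the count tools for the sorted lines and edgeR without a minimum were added after the data were seen. Lists were also divided by EV mean at a late stage, with their values known. Replicate numbers did not pair the libraries, since same-numbered libraries did not deviate together in every pair.

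The members and the lists of related genes were chosen with earlier results of these data known. All members are named; from each list the 4 genes highest in the labelled OE group and the 2 highest in EV; for likeness, the 10 closest genes. Some genes that this rule picks are not reported here. Scripts ran in Python 3.11.15 with pandas 2.3.3, numpy 2.4.6 and matplotlib 3.10.9.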

Additional observations from a re-analysis of the deposited data

How the results depend on the processing

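Of the counts of called genes compared over the alternatives, 122 stayed within 1.5 times the main count and 9 did not. The 122 include counts of 0 members against 0 in Hs578T, HCC70 and the sgRNA comparison, where the main test held 3, 1 and 2 members. Others are list counts that rest in part on genes with an EV mean under 1 CPM. The tally is therefore no measure of stability. No member was called in Hs578T, HCC70 or the sgRNA comparison under any alternative, apart from NEFL in Hs578T, where 1 member was called with no minimum by limma and by edgeR. Mature kidney genes called higher went from 1 to 0 with a minimum of 5 and to 2 with no minimum, and ZIC and LIM homeobox genes from 7 to 4 with a minimum of 5, where fewer genes are tested. Intermediate filaments called higher went from 2 to 0 by edgeR, by DESeq2 and after the median of ratios, and to 1 without labelled KIF20A OE replicate 2, with a range of 1 to 2 over libraries left out; the cause was not tested. Kidney development factors called higher ranged from 18 to 25 over all alternatives. Of the 23 in the main fit, 15 had an EV mean under 1 CPM, so their calls carry no weight. The other 8 were not followed separately over the alternatives. The 1 mature kidney gene called higher and 4 of the 7 ZIC and LIM homeobox genes also had such an EV mean. With a replicate block, the counts were 0, 0 and 0 members and 10545 genes in the EV contrast against 10634 without it. The block moved no count given here by over 1.5 times. In that contrast each EV library correlated best with the labelled OE library of its own number. These correlations of deviations from the group means were very small (r = 0.036, 0.058 and 0.014). They come from the data and not the design, and no pairing is read from them. Members' log2 differences in that contrast kept their direction with the median of ratios, a pseudocount of 0.1 and each library left out. Their choice all but fixed this, so nothing is read from it. With a pseudocount of 0.1 the difference of NEFL went from 6.29 to 9.59. Depth limits the 6 members with 0 to 2 EV reads to bounds or wide ratios.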

Other observations

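Several genes of the kidney development list were looked at after their values were seen, beside those named by rule. The other HOX11 paralogs, HOXA11 and HOXC11, had no read in EV, like HOXD11, and stood at 35.9 ± 9.63 and 38.1 ± 3.74 CPM in the labelled OE libraries (SD, n = 3), at least 723-fold and 737-fold higher. GDNF, the ligand that draws out the ureteric bud, had 11 EV reads and stood at 6.43 ± 2.50 CPM, and its receptor pair RET and GFRA1 had none and stood at 8.28 ± 3.58 and 8.56 ± 1.39 CPM, at least 157-fold and 165-fold higher. These genes had an EV mean under 1 CPM and entered the test only through the labelled OE libraries, so no p is given. Their shared direction was all but fixed by this, and nothing is read from it. ITGA8, which was called higher in BCSCs of Hs578T, had no EV read and stood at 24.9 ± 2.45 CPM in the labelled OE libraries.

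Early kidney factors went both ways in this contrast. PAX8, the paralog that acts with PAX2, fell from 19.3 ± 5.87 CPM in EV to 0.420 ± 0.310 CPM, and OSR1, the odd-skipped factor of intermediate mesoderm, from 39.4 ± 0.547 to 0.424 ± 0.381 CPM (adjusted p = 5.7e-06 and 7.7e-07, limma). SIX2, the factor of nephron progenitors, rose from 17.0 ± 2.02 to 71.2 ± 5.52 CPM and EYA4 from 1.76 ± 0.561 to 28.2 ± 2.75 CPM (adjusted p = 6.5e-06 and 2.8e-06, limma). PAX2 and PAX8 thus differed in opposite directions between the groups, in a contrast from which PAX2 was chosen and PAX8 was not.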
